A study of Mus musculus with 4 samples.

Results

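Tubulin is the protein bound by mertansine, the cytotoxic payload of the antibody-drug conjugate (ADC) used in the study. The genes described here are 10 of the alpha and beta tubulin genes of the mouse, and not all of them. They were taken by gene name from the table of 56748 genes: 4 alpha genes (Tuba1a, Tuba1b, Tuba1c and Tuba4a) and 6 beta genes (Tubb2a, Tubb2b, Tubb3, Tubb4b, Tubb5 and Tubb6). The samples were lungs of BALB/cJ female mice that received 2000000 4T1-FLuc cells by tail vein at 7 weeks of age. 4T1 is a mouse mammary carcinoma line used as a model of triple-negative breast cancer (TNBC), and FLuc is the firefly luciferase it carries. The saline group was named saline in the sample titles and PBS control in the treatment field. The ADC/cmLumiOpto group received CD276-DM1, a monoclonal antibody against the surface protein CD276 coupled to mertansine (DM1), together with cmLumiOpto, a gene therapy in exosome-coated AAV that depolarizes mitochondria by luminescent optogenetics. Its labels give 16 mg/kg for the ADC and cmLumi-Olap for the other agent, whereas the study's methods give 8 mg/kg and cmLumiOpto. Both groups carried metastases and had a treatment time of 3 weeks in the sample records. They differed in both agents at once, so the ADC and cmLumiOpto cannot be told apart. With 2 samples a group, the 4 libraries held 15263375 to 19675436 counts, and a count of 3 or fewer in a library was taken as the limit of detection. The labels describe tumor cells and the methods describe dissociated lung tissue. Genes listed for lung cell types and for carcinoma epithelium were both detected, but the latter do not separate tumor from lung epithelium.

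Alpha and beta tubulin join as a heterodimer, the subunit of the microtubule, which forms the mitotic spindle, the core of cilia and the tracks of intracellular transport. Mertansine is a maytansinoid: it binds beta tubulin and blocks the addition of subunits at microtubule ends, and cells held in mitosis by it can die. Tubulin mRNA is itself controlled by the pool of free subunits. When soluble tubulin is in excess, TTC5 recognizes the first residues of tubulin chains emerging from the ribosome, and SCAPER and the CCR4-NOT deadenylase then bring about decay of the mRNA being translated. The genes differ in where they are used: Tubb5 and Tuba1b are the common isotypes of dividing cells, Tubb2a, Tubb2b and Tubb3 are best known from neurons, and Tubb4b from cilia and many other tissues.

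The first 21 coding bases are shown because the start of the nascent chain is the part read in tubulin mRNA decay. They come from the GENCODE M21 reference transcripts, with the first 12 bases (start codon and codons 2 to 4) in capitals.
Tuba1a, Tuba1b and Tuba1c: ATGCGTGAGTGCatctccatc
Tuba4a: ATGCGCGAGTGCatttcagtc
Tubb2a: ATGCGCGAGATCgtgcacatc
Tubb2b: ATGCGAGAGATCgtgcacatt
Tubb3: ATGAGGGAGATCgtgcacatc
Tubb4b: ATGAGGGAGATCgtgcacctg
Tubb5: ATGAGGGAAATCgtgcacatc
Tubb6 is not shown. In all 10 genes codons 2 and 3 coded for arginine and glutamate. The sequences were identical in the 3 Tuba1 genes, and Tubb3 and Tubb4b shared their first 12 bases.

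The ends of the beta coding sequences are shown because the carboxy-terminal tail is where the isotypes are least alike. Each line gives the last 60 coding bases before the stop codon, and in the lower lines capitals mark bases not aligned to the same base in Tubb5.
Tubb5: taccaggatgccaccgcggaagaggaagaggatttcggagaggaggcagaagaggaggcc
Tubb4b: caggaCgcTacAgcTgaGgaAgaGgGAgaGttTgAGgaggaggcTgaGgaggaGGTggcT
Tubb2a: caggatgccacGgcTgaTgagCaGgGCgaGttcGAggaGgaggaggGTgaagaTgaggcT
Tubb2b: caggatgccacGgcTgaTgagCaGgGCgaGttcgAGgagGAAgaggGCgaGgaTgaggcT
Tubb3: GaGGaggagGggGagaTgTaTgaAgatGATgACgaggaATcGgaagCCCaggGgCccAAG
Between 58.3% (Tubb3) and 75.0% (Tubb2a) of these bases were the same as in Tubb5, and Tubb6 is not shown.

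Over the whole coding sequence, Tubb5 was 80.2% identical to Tubb6 and 84.6% identical to Tubb2a, the least and the most similar of the other beta genes. Tuba1a and Tuba1b were 98.3% identical, and Tubb2a and Tubb2b 96.5%. To see which counts could be split between genes, every 100-base window of each reference transcript was looked up in the transcripts of all other genes. Of the windows of Tuba1b 69.5% were also found in another gene, as were 65.1% of Tuba1a and 53.4% of Tuba1c. Tuba1c was the gene sharing most with Tuba1b (48.6%) and Tuba1a (34.9%), and Tuba1b with Tuba1c (42.4%). The genes Gm17383, Gm14150 and Gm49450 were among the others with shared windows. The shares were 36.9% for Tubb2a and 27.7% for Tubb2b, mainly in each other, and 29.2% for Tubb4b, mainly in the pseudogene Tubb4b-ps1. The counting program is not given in the sources used here, so the separate values of these 6 genes are uncertain. None of the windows of Tubb5, Tubb6, Tubb3 and Tuba4a was found elsewhere, and their counts were free of this limit at that length.

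**Figure D1:**
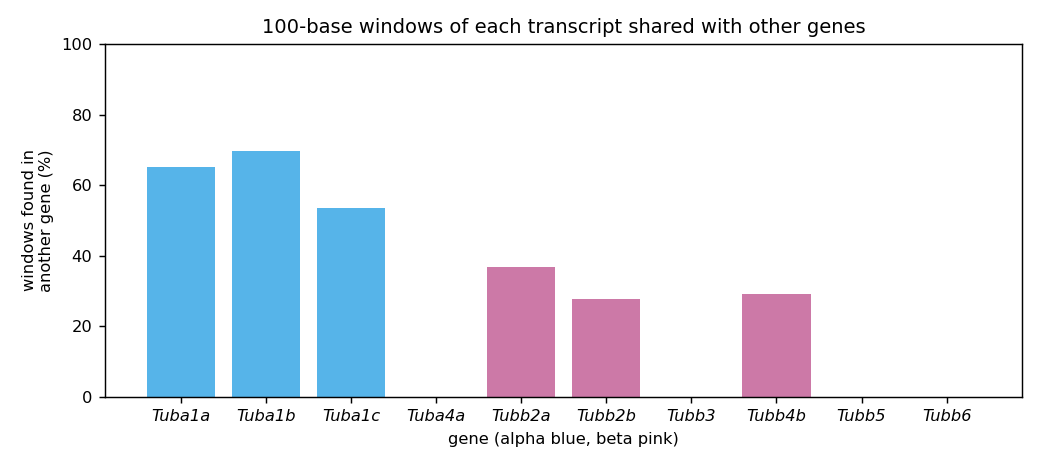
Share of 100-base windows (y axis, percent) of each gene's reference transcript that occur in a transcript of another gene, with alpha genes in blue and beta genes in pink. Tuba1b is highest at 69.5%, and Tuba4a, Tubb3, Tubb5 and Tubb6 have no shared window.

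Levels are compared between genes in counts per 1000000 (CPM, scaled by TMM) per kilobase of the gene model, and between samples in CPM. Tubb5 was the most abundant tubulin mRNA, at 640, 597, 390 and 349 CPM per kilobase in saline 1, saline 2, ADC/cmLumiOpto 1 and ADC/cmLumiOpto 2. Tuba1b followed at 359, 308, 320 and 307 CPM per kilobase in the same order. Tubb5 exceeded Tuba1b in each sample, but the range of one over the 4 samples overlapped that of the other. Means over the 4 samples were 177 CPM per kilobase for Tuba1a and 167 for Tubb4b, whose ranges also overlapped, then 119 for Tuba1c, 76.6 for Tubb6, 37.0 for Tubb2a, 21.5 for Tuba4a, 4.69 for Tubb2b and 0.166 for Tubb3. The ranges of neighbors in that lower part of the order were separate.

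Tubb5 and Tubb6 gave the largest log2 differences between the groups in the reported test, while Tubb2b exceeded Tubb5 with the trend on gene length removed (−0.81 against −0.80) and both without ADC/cmLumiOpto 1 (−0.93). Tubb5, the main beta tubulin of dividing cells, lay on chromosome 17 at 36144813 to 36149198 on the minus strand, as the table lists it (mm39 in the submitters' processing notes). It was at 2129 and 1985 CPM in the saline samples and at 1298 and 1163 CPM in the ADC/cmLumiOpto samples. Both treated samples were below both saline samples, with means of 2057 ± 102 (SD, n = 2) and 1230 ± 95.6 CPM, a ratio of 0.598. The log2 fold change was −0.74 ± 0.17 (SE; 95% interval −1.15 to −0.34), with an adjusted p of 0.117 by the quasi-likelihood test of edgeR. Bulk RNA does not separate fewer cells of a type from less RNA per cell, and the 2 cannot be told apart here. The summed level of 8 proliferation genes was also lower in both treated samples, at 1433 and 1397 CPM against 999 and 872 CPM. Of these 8 genes 6 were lower in both treated samples, against 28.8% of all tested genes. Mki67 and Top2a, with long gene models of 10061 and 9013 bases, fell most. Cdk1 (log2 fold change −0.18) and Birc5 (0.09) overlapped between the groups. The sum of 7 fibroblast genes was lower as well, at 5151 and 3544 CPM against 1767 and 1459 CPM. The part of dividing cells and fibroblasts in the tubulin values was not tested.

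Tubb6, a beta isotype expressed at moderate levels in many tissues, was at 208 and 260 CPM in saline and at 135 and 143 CPM after ADC/cmLumiOpto. The groups did not overlap, and the ratio of the means was 0.595. Its log2 fold change was −0.75 ± 0.18 (95% interval −1.17 to −0.32; adjusted p = 0.123 in edgeR). Tubb5 and Tubb6 passed the unadjusted threshold of 0.05 and missed the adjusted one in the main test. The call depended on the tool: with DESeq2 their adjusted p-values were 0.00223 and 0.0105, with edgeR's exact test 0.0270 and 0.0322, and without the filter on low counts 0.00154 and 0.00546. In those settings 8.69%, 7.64% and 8.84% of all tested genes were called, and 4.94%, 3.68% and 4.05% were called lower. The separation of Tubb6 rested in part on saline 2, without which its log2 fold change was −0.58 and missed the unadjusted threshold (the lone saline sample being assumed to vary like the treated ones).

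**Figure D2:**
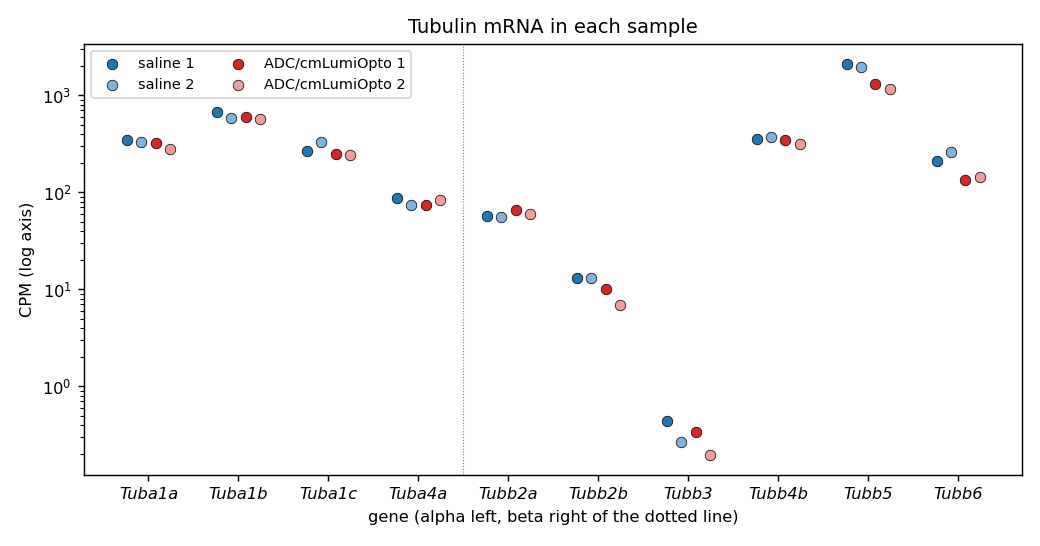
CPM (y axis, log scale) of the 10 tubulin genes in each of the 4 samples, 1 point per sample, with saline in blue and ADC/cmLumiOpto in red. For Tubb5 both saline points lie between 1985 and 2129 and both treated points between 1163 and 1298, and for Tubb6 both treated points lie below both saline points. Tubb3 is near the bottom in each sample.

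The other beta genes gave smaller or less certain differences. Tubb4b, an isotype found in cilia and widely elsewhere, was at 356 and 377 CPM in saline and at 343 and 317 CPM after treatment. Both treated values were lower, but the log2 fold change was only −0.15 ± 0.15 (95% interval −0.52 to 0.22; adjusted p = 0.588 in edgeR). Tubb2a was the single tested member with a higher mean after treatment, at 56.8 and 55.5 CPM against 66.5 and 59.3 CPM. Both treated values were above both saline values, and the difference of 0.16 ± 0.16 on the log2 scale did not pass the test (adjusted p = 0.567 in edgeR). Tubb2b, its close copy on chromosome 13, was at 13.1 and 13.1 CPM in saline and at 10.03 and 6.83 CPM after treatment. Its log2 fold change of −0.63 ± 0.29 was close in size to those of Tubb5 and Tubb6 but less certain (95% interval −1.34 to 0.07; adjusted p = 0.249 in edgeR). It moved between −0.93 (without ADC/cmLumiOpto 1) and −0.39 (without ADC/cmLumiOpto 2) when 1 sample was left out. Summed into 1 feature because reads could be split between them, Tubb2a and Tubb2b gave 0.04 on the log2 scale (adjusted p = 0.900 in edgeR). Tubb3, the isotype used as a marker of neurons, had 7 and 4 counts in saline and 6 and 4 counts after treatment, just above the limit of detection, and did not pass the filter. The 8 listed markers of neurons and nerve summed to 4.50 and 6.81 CPM in saline and to 11.6 and 10.8 CPM after treatment, most of it from Stmn2 (59 and 90 counts against 188 and 198), which with Uchl1 was higher in both treated samples. Elavl4, Syt1 and Nefl of that list had no count in any sample.

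The alpha genes differed less than Tubb5. Tuba1b, the main alpha isotype here, was at 674 and 578 CPM in saline and at 599 and 576 CPM after treatment, so that the groups overlapped (log2 fold change −0.09 ± 0.17, adjusted p = 0.769 in edgeR). Tuba1a, best known from developing neurons, was at 343 and 331 CPM against 323 and 279 CPM, with both treated values lower (−0.16 ± 0.16, adjusted p = 0.571 in edgeR). Tuba1c was at 270 and 327 CPM against 248 and 246 CPM, also lower in both treated samples (−0.27 ± 0.17, adjusted p = 0.359 in edgeR). These 3 genes lie within chromosome 15 from 98829306 (Tuba1b) to 98935991 (Tuba1c) in the table's positions. Taken as 1 feature they gave −0.15 (adjusted p = 0.594 in edgeR), a value not subject to the splitting of reads among them. Reads shared with other genes, such as Gm49450, could still affect it. Tuba4a, an alpha isotype known from muscle, brain and platelets, was at 87.2 and 74.3 CPM against 73.5 and 83.6 CPM. Its groups overlapped, and its log2 fold change of −0.04 ± 0.17 was positive, at 0.01 and 0.04, with scaling by library size and by upper quartile.

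Counted over the 9 tested members, 8 had a lower mean after ADC/cmLumiOpto and Tubb2a a higher one (7 and 2 with scaling by library size or upper quartile, where Tuba4a was also positive). None had an adjusted p under 0.05, and neither did any of the 15320 genes that passed the filter on low counts (0%), of which 23.2% were at an unadjusted p under 0.05. At that unadjusted threshold 2 of 9 members were lower, against 12.2% of all tested genes, and none was higher, against 11.0%. In 6 of 9 members the treated samples did not overlap the saline samples and were lower, against 28.8% of all tested genes, and in 1 they were higher, against 28.1%. The median log2 fold change was −0.16 over the 9 members and 0.03 over all tested genes. Across genes the differences followed the length of the gene model: the median was 0.39 up to 1000 bases and −0.18 above 5000 bases, and the members measure 1610 to 3701 bases. With this trend removed, 6 of 9 members were lower at an unadjusted p under 0.05 (Tuba1a, Tuba1c, Tubb2b, Tubb4b, Tubb5 and Tubb6), against 9.52% of all tested genes, none had an adjusted p under 0.05, and Tubb2a was at −0.10.

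**Figure D3:**
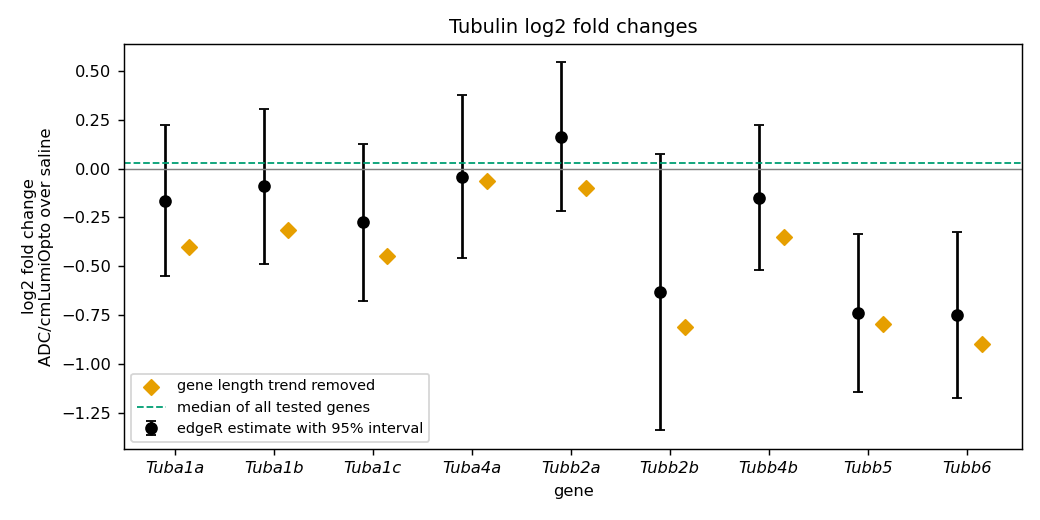
Log2 fold change of ADC/cmLumiOpto over saline (y axis) for the 9 tested tubulin genes, as edgeR estimates with 95% intervals (black) and with the trend on gene length removed (orange diamonds), beside the median of all tested genes (dashed, 0.03). The intervals of Tubb5 and Tubb6 lie below 0, and those of the other 7 include 0.

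The summed tubulin mRNA was lower after treatment, and mostly so through the single beta gene Tubb5. The 10 genes together held 4137 and 4001 CPM in saline and 3097 and 2874 CPM after ADC/cmLumiOpto, 0.734 of the saline mean. An exact two-sided permutation test over the samples gave p = 0.33, the smallest value that 2 against 2 samples allow, so that it cannot pass a threshold of 0.05. The same p held for each sum and ratio of this paragraph. The alpha genes summed to 1374 and 1310 CPM against 1244 and 1184 CPM (a ratio of 0.904), and the beta genes to 2764 and 2690 CPM against 1853 and 1690 CPM (a ratio of 0.650). Without Tubb5 the ratio of the totals was 0.872 and that of the beta sums 0.808 (means of 670 and 541 CPM). The ratios of alpha to beta given next include Tubb5. Per kilobase, the ratio of alpha to beta tubulin mRNA was 0.737 and 0.709 in saline and 0.956 and 0.986 in the treated samples. In CPM, without division by length, it was 0.497 and 0.487 against 0.671 and 0.701. On both scales the ratio was higher in both treated samples, while its level depended on the lengths used.

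Within the beta family the composition differed as well. Tubb5 made up 68.3% and 64.6% of beta tubulin CPM per kilobase in saline and 59.5% and 58.2% after treatment, a difference of −7.57 percentage points. Tubb4b made up 18.2% and 19.5% against 25.1% and 25.3%, and Tubb2a 3.77% and 3.73% against 6.30% and 6.14%. None of these 3 shares overlapped between the groups (exact permutation p = 0.33, the smallest possible). Shares of a family add up to the whole, so a lower share of Tubb5 raises the others and the 3 are not separate results. In CPM, Tubb4b was lower in both treated samples (356 and 377 against 343 and 317). Tubb2a was higher in both (56.8 and 55.5 against 66.5 and 59.3). The share of Tubb6 was 9.11% and 11.5% against 8.47% and 9.80% and overlapped. In the alpha family the share of each gene overlapped between the groups, with Tuba1b at 52.0% and 47.1% in saline and 51.0% and 51.9% after treatment. The log2 ratio of Tubb5 to Tubb6 was 3.35 and 2.93 in saline and 3.26 and 3.02 in the treated samples and thus overlapped. The log2 ratios of Tubb5 to Tuba1a, Tuba1b, Tuba1c, Tuba4a, Tubb2a and Tubb4b were each lower in both treated samples, with differences of −0.47 (Tuba1c) to −0.90 (Tubb2a). That of Tubb5 to Tubb2b overlapped, at 7.35 and 7.25 against 7.02 and 7.41. The ratios all contain Tubb5, so they are not separate results either. The shares and ratios make no allowance for the trend on gene length. With that trend removed, the log2 fold change of Tubb5 was −0.80. Those of Tuba1a, Tuba1b, Tuba1c, Tuba4a, Tubb2a and Tubb4b then lay between −0.45 (Tuba1c) and −0.06 (Tuba4a).

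**Figure D4:**
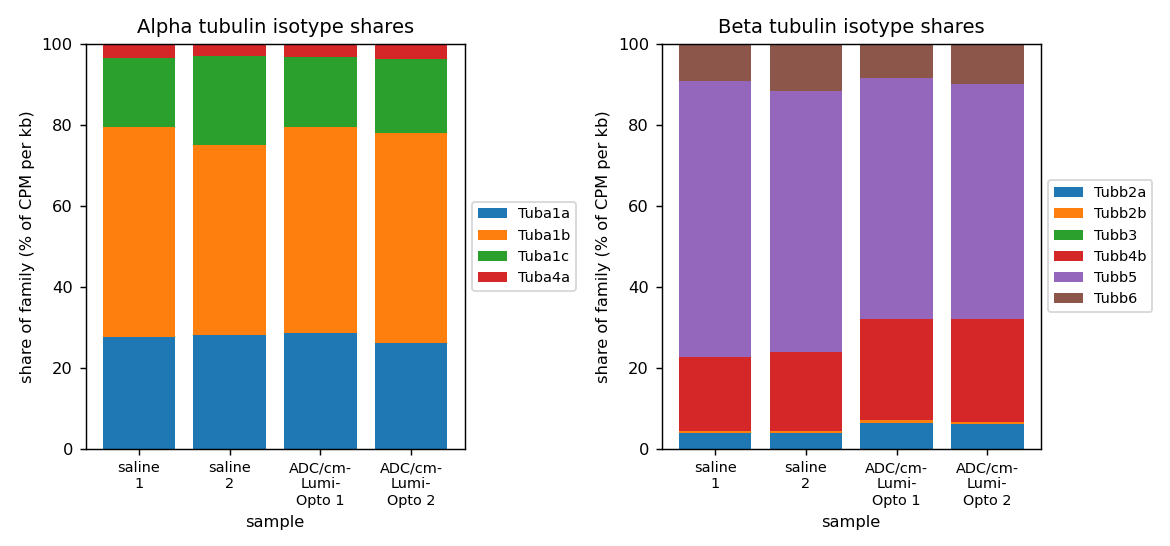
Share of each gene in the alpha (left) and beta (right) tubulin mRNA of each sample, in percent of summed CPM per kilobase. Tubb5 takes 68.3% and 64.6% of the beta bars in saline and 59.5% and 58.2% in ADC/cmLumiOpto, whereas the alpha bars overlap between groups.

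The sequences upstream of Tubb5 and Tubb4b are shown because these were the most abundant beta genes and differed in the size of the difference between groups. The 250 bases before the RefSeq start (GRCm38.p6) are given 5′ to 3′ on the strand of the gene, at chr17:35838302-35838551 (minus) for Tubb5 and chr2:25224703-25224952 (minus) for Tubb4b. Capitals mark CCAAT on either strand (CCAAT or ATTGG).
Tubb5 upstream: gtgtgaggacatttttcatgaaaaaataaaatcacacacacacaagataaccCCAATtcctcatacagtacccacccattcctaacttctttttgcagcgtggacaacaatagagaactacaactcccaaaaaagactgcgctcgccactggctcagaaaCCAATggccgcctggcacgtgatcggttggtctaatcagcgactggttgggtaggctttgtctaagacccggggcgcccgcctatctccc
Tubb4b upstream: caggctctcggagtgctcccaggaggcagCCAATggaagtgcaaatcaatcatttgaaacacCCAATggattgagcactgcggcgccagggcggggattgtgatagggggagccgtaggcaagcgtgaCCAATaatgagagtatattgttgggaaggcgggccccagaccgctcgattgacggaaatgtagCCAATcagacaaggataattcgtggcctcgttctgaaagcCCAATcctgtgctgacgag
The CCAAT box is bound by the factor NF-Y. Tubb4b held 5 matches and Tubb5 2, while Tuba1a, Tuba1c and Tubb3 held 1 each and Tuba1b, Tuba4a and Tubb2a none. Of 32851 promoter windows of the same length, 33.8% held at least 1 match, 10.1% at least 2 and 0.840% at least 4. The matches are a description of the C57BL/6J reference and not of binding sites in these BALB/cJ mice or 4T1 cells.

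Around the members, 105 other genes of tubulin and microtubule biology in 6 lists were read from the same fit, of which 98 were tested. None had an adjusted p under 0.05 in edgeR, 5 were higher and 22 lower at an unadjusted p under 0.05, against 11.0% and 12.2% of all tested genes, and their median log2 fold change was −0.14. DESeq2 called 15 of them (2 higher and 13 lower, against 8.69% of all tested genes called), edgeR's exact test 13 and the test without the filter 17. Of the 10 other tubulin genes 6 were tested. Tubb4a, a beta isotype of the brain, was at 9.13 and 8.36 CPM in saline and at 2.49 and 3.36 CPM after treatment (log2 fold change −1.57 ± 0.34, adjusted p = 0.116 in edgeR), the largest difference of any tested tubulin gene. The delta tubulin Tubd1 (1.02 ± 0.48) and the alpha tubulin Tuba8 (0.72 ± 0.57) did not reach an unadjusted p of 0.05. The gamma tubulins that seed microtubules, Tubg1 and Tubg2, were at −0.16 and −0.52 with overlapping groups. Tuba3a, Tuba3b and Tubal3 had no count in any sample.

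Tubulin is folded by prefoldin and the CCT chaperonin and joined into dimers by the cofactors TBCA to TBCE. Of the 22 genes of this list 3 were higher and 1 lower at an unadjusted p under 0.05, against 11.0% and 12.2% of all tested genes. The median log2 fold change of the list was 0.09. The prefoldin subunit Pfdn5 was at 113 and 116 CPM in saline and at 246 and 206 CPM after treatment (0.98 ± 0.17, adjusted p = 0.116 in edgeR). The beta tubulin cofactor Tbca was at 0.66 ± 0.20, and the cofactor Tbcd, which acts on the dimer, at −0.51 ± 0.19. The CCT subunits Cct3 (0.01) and Cct5 (0.05) had overlapping groups. Pfdn5 and Tbca have short gene models, of 1394 and 811 bases, and the median over all tested genes was 0.37 from 1000 to 1500 bases and 0.39 below that.

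In the list of tubulin mRNA decay, all 4 genes were tested. Ttc5, whose protein recognizes the nascent tubulin chain, was at 25.1 and 24.6 CPM in saline and at 32.9 and 31.6 CPM after treatment (0.38 ± 0.17, adjusted p = 0.248 in edgeR). Both treated values were higher. The CCR4-NOT subunits Cnot1 (−0.64 ± 0.15) and Cnot11 (−0.36 ± 0.16) and the adaptor Scaper (−0.29 ± 0.20) were lower in both treated samples. Only Cnot1 was at an unadjusted p under 0.05 in this list, against 12.2% of all tested genes lower at that threshold. None of the list had an adjusted p under 0.05.

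In the reported test, genes that nucleate and handle microtubules had lower medians than the tubulin members (−0.16), with no allowance made for gene length. That order was not tested with the trend on gene length removed. Of 20 nucleation genes 5 were lower at an unadjusted p under 0.05 and none higher (median −0.24). Over all tested genes 12.2% were lower and 11.0% higher at that threshold, the shares to set beside each list here. Cdk5rap2, which anchors gamma tubulin at centrosomes, was at −1.005 ± 0.19, the spindle assembly factor Tpx2 at −0.76 ± 0.16 and the gamma tubulin complex subunit Tubgcp2 at −0.76 ± 0.20. Of 28 tested genes of microtubule dynamics 10 were lower and 1 was higher at an unadjusted p under 0.05 (median −0.35). Map1b, a microtubule-associated protein, was at 144 and 120 CPM in saline and at 57.7 and 58.6 CPM after treatment (−1.19 ± 0.17, adjusted p = 0.116 in edgeR), the polymerase Ckap5 at −1.05 ± 0.19 and the plus-end protein Clasp1 at −0.81 ± 0.19. Of 18 tested genes of tubulin modification 4 were lower and 1 was higher at that threshold (median −0.21), among them the tubulin carboxypeptidase Vash2 (−1.43 ± 0.28), the deacetylase Hdac6 (−0.91 ± 0.18) and Ttll12 (−0.47 ± 0.17), a member of the tubulin tyrosine ligase-like family. The named genes of these lists have gene models from 3980 (Tubgcp2) to 21844 bases (Clasp1). The median over all tested genes was 4113 bases, and Tubgcp2 and Ttll12 (4039) were below it. The median over all tested genes was 0.01 from 3500 to 5000 bases and −0.18 above 5000 bases. In those length ranges 10.6% and 21.5% of tested genes were lower at an unadjusted p under 0.05.

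**Figure D5:**
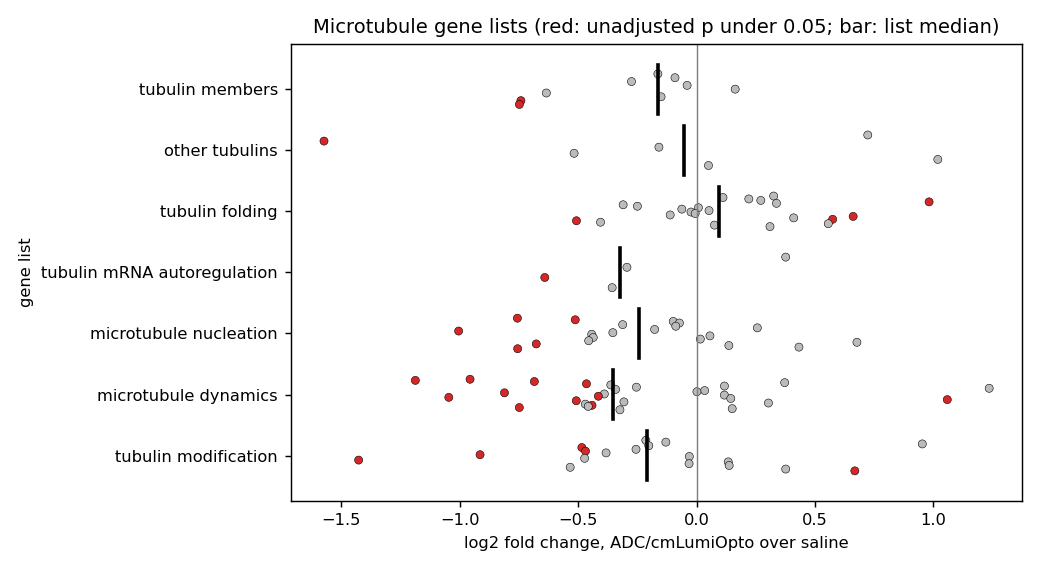
Log2 fold change (x axis) of each tested gene in the tubulin members and the 6 microtubule lists, with red points at an unadjusted p under 0.05 and black bars at list medians. Microtubule dynamics has the lowest median (−0.35) and tubulin folding a median of 0.09.

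Markers of other cell types in the lung differed between the groups as well, and all listed genes of the types named here were detected. The summed level of 7 alveolar genes was 1585 and 340 CPM against 5780 and 4945 CPM. The saline samples thus differed from each other in alveolar genes, and the treated ones were higher than both. The 6 genes listed for carcinoma epithelium stood at 2947 and 3310 CPM against 2917 and 2847 CPM, a sum carried mostly by Krt8 and Krt18. Those 2 were lower in both treated samples, Cdh1 and Krt7 were higher in both, and Epcam and Krt19 overlapped. How much of that sum came from tumor and how much from lung epithelium was not tested, so it is no measure of tumor content. The 8 markers of ciliated airway cells were low throughout, at 9.13 and 3.44 CPM against 21.8 and 19.2 CPM. Leukocyte genes summed to 1296 and 815 CPM against 1430 and 1867 CPM, endothelial genes to 458 and 366 against 480 and 726, and erythroid genes to 1110 and 352 against 1871 and 2075. The part of these cell types in the tubulin values was likewise not tested.

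The protein-coding genes outside the family whose log2 profile over the 4 samples was nearest to that of Tubb5 were Sh3bgrl2, Gdf11 and Antxr1, at Euclidean distances of 0.0475, 0.0789 and 0.0830. Sh3bgrl2 was at 73.0 and 69.5 CPM in saline and at 45.5 and 41.7 CPM after treatment. Gdf11 codes for a TGF-beta family ligand and Antxr1 for an anthrax toxin receptor.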

How the data were processed

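Poly(A) mRNA of 4 lung samples with 4T1 metastases was sequenced on an Illumina instrument. The authors deposited raw counts, whole numbers of reads per gene without normalization, beside the length of each gene model. The methods name HISAT2 with GRCm38, whereas the submitters' processing notes list HISAT2, HISAT, TopHat2 and mm39. The listed gene positions are not those of GRCm38. Counting program and strand setting are not given in the sources used here. Groups were taken from the sample titles, with 2 samples each, where the study states 4 per group.

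Groups were compared in edgeR 4.0.16 under R 4.3.3 (filterByExpr at its default minimum of 10 counts and total of 15, TMM, glmQLFit and glmQLFTest, Benjamini-Hochberg adjustment over 15320 genes, threshold 0.05). The prior count was 0.125. DESeq2 1.42.0 and edgeR's exact test served as alternatives, beside other scalings, filters and left-out samples. The edgeR test was also run on simulated data with 2 samples a group and 100 genes changed at each size. It called 35.4% of tested genes changed by a log2 fold change of 1 and 85.7% of those changed by 2. The simulation gave genes of the same level the same spread, so these shares need not hold for the real data. With 2 samples a group, p-values measure only the spread between these samples. The edgeR fit moderates the spread of each gene with that of the other tested genes. Intervals and detection limits cover no more than that spread or counting error.

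The members and the gene lists were chosen with earlier results of these data known. Named genes were all members, the 3 genes of smallest unadjusted p in each of the 6 pathway lists, and the 3 protein-coding genes nearest in profile to Tubb5. Tubg1, Tubg2, Tubb1, Tuba3a, Tuba3b, Tubal3, Scaper, Cct3, Cct5 and single genes of the marker lists were named in addition after their values were seen. Coding sequences came from GENCODE M21 transcripts and upstream sequences from RefSeq, which matched 8 of 10 members.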

Additional observations from a re-analysis of the deposited data

How the results depend on the processing

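In the reported test no gene, no member and no pathway gene had an adjusted p under 0.05, and 3553 genes were at an unadjusted p under 0.05. DESeq2 called 1332 genes, the exact test 1170 and the test without a filter on low counts 2259, among them 2 members each time (Tubb5 and Tubb6) and 15, 13 and 17 pathway genes. The cause was not tested. Scaling by library size, upper quartile or DESeq2 size factors, a minimum of 10 counts in every sample, protein-coding genes alone and summed copies called none. Upper-quartile scaling moved the median of all tested genes to 0.11. Removal of the length trend gave 6 members at an unadjusted p under 0.05 in place of 2, while the count over all genes went from 3553 to 3041 (19.8%). Tuba4a turned positive by library size (0.0078) and upper quartile (0.043), and Tubb2a negative without the length trend (−0.099, with and without the block).

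The replicate block, the sample number as a term of the fit, called 607 genes (3.96% of all tested genes). None of them was a member, and 6 of the 98 tested pathway genes were among them. With the length trend removed as well it called 2 genes and left 4 members at an unadjusted p under 0.05, against 20.2% of all genes. Same-numbered samples share only a number: their deviations from the group means correlated at r = 0.0985 over 15320 genes.

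With 1 sample left out, 0 to 218 genes were called (218 without saline 1, 10 without saline 2, 5 without ADC/cmLumiOpto 1 and 0 without ADC/cmLumiOpto 2), never a member. Members at an unadjusted p under 0.05 numbered 1 to 3: Tubb5 alone without saline 2, and Tubb2b, Tubb5 and Tubb6 without ADC/cmLumiOpto 1. The log2 fold change of Tubb5 was −0.82 to −0.67 and that of Tubb6 −0.91 to −0.58, that of Tuba4a −0.15 to 0.067 that of Tuba1b −0.19 to 0.011 and that of Tubb2b −0.93 to −0.39. The lone sample of a group was assumed to vary like the others. The summed tubulin and the share of Tubb5 kept their direction in each alternative run for them (for the share also with reference transcript lengths, an alternative chosen after seeing the data, at −7.29 percentage points). Genes with few counts, such as Tubb3, were limited by depth.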

Other observations

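Tubb1, the beta tubulin of platelets and megakaryocytes and no member of the group described above, had 5 and 2 counts in saline and 5 and 54 counts in the ADC/cmLumiOpto samples, so that its higher mean came from 1 treated sample. It did not pass the filter on low counts. The 5 listed platelet genes summed to 12.6 and 26.4 CPM in saline and to 22.7 and 29.6 CPM after treatment, and Gp1bb, one of them, had no count in any sample. The sum was mostly Pf4 (7.50 and 23.5 CPM against 14.5 and 16.6 CPM), whereas Ppbp (0.750 and 0.404 CPM against 2.44 and 3.07 CPM), Itga2b and Gp9 were higher in both treated samples.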
